A study of Mus musculus with 2 samples.

Results

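The genes described here encode the AP-1 and Egr immediate early transcription factors: Fos, Fosb, Fosl1, Fosl2, Jun, Junb, Jund, Egr1, Egr2 and Egr3. They were chosen by name, as the probes annotated to 1 of these 10 symbols alone, and 14 of the 36547 probes met that rule. All 10 genes were measured, among 17501 named genes in all. Fosl2 had 3 probes, Fosb and Egr3 had 2 each, and the other 7 genes had 1 probe each.

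Mouse lymphocytes had been polarized in culture and, per the labels, came from a mouse of the TRP-1 kind, whose T cells recognise a melanoma antigen. Every population shared that origin, and the labels give no age, sex, culture time or cytokines. One dual-colour array held RNA of Th1-polarized cells (Cy5) and of Th0 cells (Cy3), the other RNA of Th17-polarized cells (Cy5) and of Th0 cells (Cy3); they are called the Th1 array and the Th17 array. Th0 usually names cells activated without lineage-directing cytokines, Th1 cells make interferon gamma and Th17 cells make interleukin 17. There was 1 array per comparison with no dye swap, so no value has a replicate, no p-value was computed, and the number of arrays limits the precision.

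Fos and Jun proteins pair through leucine zippers to form AP-1, which binds DNA in the control regions of cytokine and growth genes, often together with NFAT in T cells. Egr proteins are zinc finger factors that bind GC-rich sites. Several genes of both families, though not all, are switched on within minutes of T cell receptor signalling through MAP kinases and calcium. Egr2 and Egr3 are also known for restraining T cell activation.

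Values are log2 ratios as the authors deposited them, so a difference of 1 is 2-fold. Which channel is the numerator is unsettled. Under the titled reading, a positive value stands for more transcript in the polarized population, and under the opposite reading for more in Th0. Il17a, the gene of interleukin 17A, lay at −5.37 on the Th17 array and Ifng, the gene of interferon gamma, at −2.02 on the Th1 array, both opposite to the titled reading. Also opposite to the titled reading were Il17f at −2.38 and Il22 at −5.79 on the Th17 array. So was Tbx21, a Th1 regulator gene, at −1.25 on the Th1 array. Going the other way, Gata3, a Th2 regulator gene, lay at −1.49 on the Th1 array. On the Th17 array, however, Gata3 lay at 1.28 and Tbx21 at 0.87, under the titled reading more of both in Th17 than in Th0 cells. The titled reading would place more Il17a transcript in Th0 than in Th17 cells. With no dye swap the direction was not tested, so signed values are given as sides of the ratio. The centring is unsettled too. The median of all probes was −0.11 and −0.05 on the Th1 and Th17 arrays, and the most repeated value, which a probe with equal signals would hold, was −0.85 and −0.43. Percentiles among the 17501 genes do not depend on where an array is centred. Repeat measurements exist only as several probes per gene, whose pooled SD was 0.51 for the Th1 array, 0.49 for the Th17 array and 0.52 for the difference between arrays. It covers probes, not samples.

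The 250 bases before the start site of the members that the results turn on are shown first, because immediate early genes are known for promoters that respond to signalling. The RefSeq table used (build GRCm38.p6) held 7 of the 10 genes and did not hold Fosl1, Egr1 and Egr3. Both strands were searched for the CArG box, which binds serum response factor, for TGACG and TGACNTCA, core forms of the sites bound by CREB, ATF and Jun proteins, for the AP-1 site TGANTCA and for the Egr site GCGNGGGCG. TGACG overlaps TGACNTCA where N is G. Capitals mark every match in the Fos and Fosb sequences. Fos is shown from chr12:85473640-85473889 on the plus strand, and Fosb from chr7:19310046-19310295 on the minus strand, both 5′ to 3′ towards the start.
Fos: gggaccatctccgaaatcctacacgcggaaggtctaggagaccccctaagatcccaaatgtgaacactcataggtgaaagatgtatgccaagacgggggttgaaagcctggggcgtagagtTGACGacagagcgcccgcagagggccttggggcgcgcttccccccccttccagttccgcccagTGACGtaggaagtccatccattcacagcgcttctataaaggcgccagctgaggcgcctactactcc
Fosb: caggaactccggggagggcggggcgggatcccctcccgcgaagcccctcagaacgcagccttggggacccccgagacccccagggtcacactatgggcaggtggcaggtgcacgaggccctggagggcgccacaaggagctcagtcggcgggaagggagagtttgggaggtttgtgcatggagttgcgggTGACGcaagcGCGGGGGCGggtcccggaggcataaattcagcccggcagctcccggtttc

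Fos held TGACG at 129 to 125 and again at 66 to 62 bases before its start. Fosb held it at 60 to 56, followed by an Egr site at 50 to 42. TGACG is common, in 17.8% of the 32851 windows of this length in the table, while GCGNGGGCG was in 4.7%. Egr2 has 5 starts in the table, and 4 of their windows held a CArG box, a motif in 1.47% of all windows. These windows share 2 boxes, shown here in capitals with 10 bases on each side, from chr10:67537484-67537513 and chr10:67537787-67537816 on the plus strand. The windows of 3 of the starts, those with the second box, also held TGACG at a pair of places. In 1 of them these were at 111 to 107 and, on the other strand, at 55 to 51 bases before the start. The match on the other strand begins in the last bases of the second stretch, where only the box is in capitals.
Egr2 first box: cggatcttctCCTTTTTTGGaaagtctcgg
Egr2 second box: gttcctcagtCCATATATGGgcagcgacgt

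Of the other members, Junb held TGACG at 106 to 102 bases, Jun held TGACNTCA (7.49% of windows) at 45 to 38 and Fosl2 an Egr site at 79 to 71. Jund held none of the motifs, and TGANTCA (6.75% of windows) was in no member window. A match describes letters only and is not shown binding.

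Among the Fos family, Fos and Fosb lay on the positive side of both arrays and Fosl1 and Fosl2 lay near 0. Fos, the founding AP-1 subunit, had a log2 ratio of 0.57 on the Th1 array (1.48-fold) and 0.73 on the Th17 array (1.66-fold). These were percentiles 90.1 and 94.8 among all genes. Fosb, a close relative of Fos, had a mean log2 ratio of 0.74 (1.67-fold, probe SD 0.11, 2 probes) and of 1.07 (2.10-fold, probe SD 0.99), at percentiles 93.6 and 97.5. Its probes lay at 0.66 and 0.81 on the Th1 array but at 0.37 and 1.77 on the Th17 array. On the latter, therefore, the mean passed 2-fold through 1 probe alone. Both genes remained on the positive side of both arrays under every centring tried. Under the titled reading, Fos and Fosb transcripts were more abundant in both polarized populations than in Th0. Under the opposite reading, with which Il17a and Ifng went, Fos and Fosb transcripts were less abundant there.

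Fosl1 (Fra-1) and Fosl2 (Fra-2) lack the strong activation domain of Fos. Fosl1 lay at −0.04 and 0.13 on the Th1 and Th17 arrays. Fosl2, a Fos relative known for restraining parts of the Th17 programme, lay at 0.09 (probe SD 0.24, 3 probes) and 0.13 (probe SD 0.49). Its 3 probes lay on both sides of 0, from −0.11 to 0.35 on the Th1 array and from −0.36 to 0.63 on the Th17 array. No side can be given for Fosl1 or Fosl2 on the Th1 array, where centring on the median made the former positive and centring on control genes made the latter negative.

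**Figure D1:**
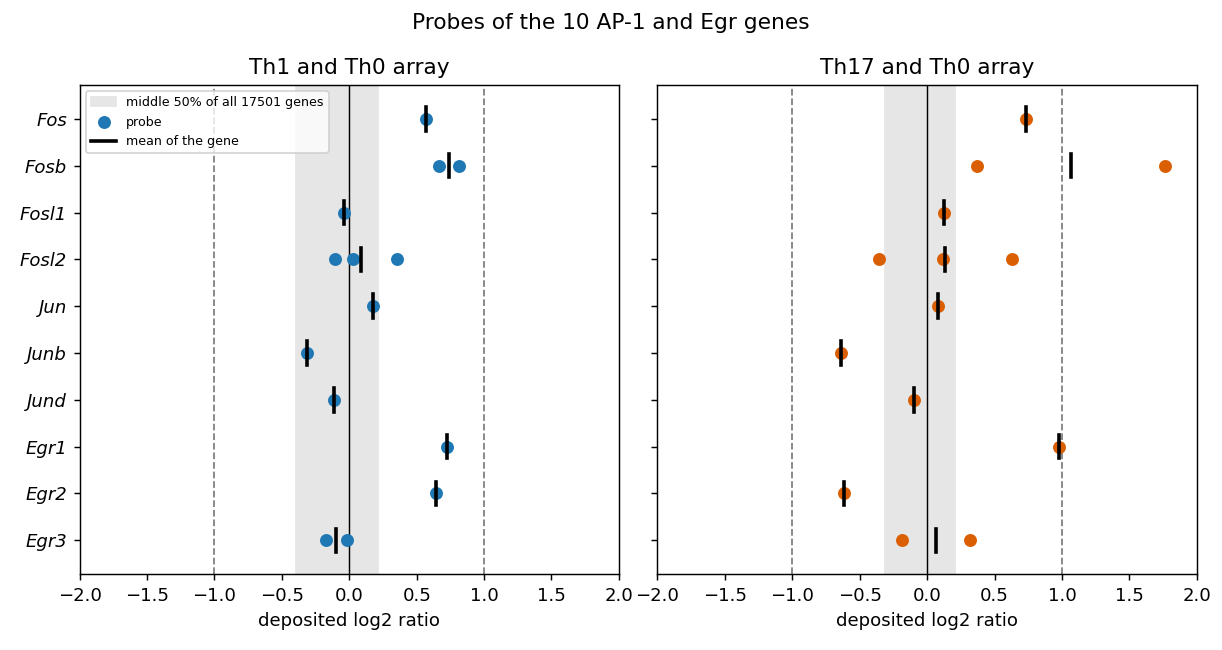
Each point is the deposited log2 ratio of 1 probe of the gene named on the left, on the Th1 array (left panel) and the Th17 array (right panel); black bars are gene means, the grey band holds the middle 50% of all 17501 genes and dashed lines mark 2-fold. Fos, Fosb and Egr1 lie right of the band on both arrays, Egr2 lies right of it on the first and left of it on the second, and the 2 Fosb probes part on the second, at 0.37 and 1.77.

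The Jun family lay nearer to 0 than Fos and Fosb. Jun, the main partner of Fos, had log2 ratios of 0.18 and 0.08 on the Th1 and Th17 arrays, and Jund, the subunit present in resting cells, −0.11 and −0.10. Junb, a partner of Batf in Th17 cells, had −0.31 (1.24-fold) and −0.64 (1.55-fold), at percentiles 30.3 and 11.6. On the Th17 array Junb was the lowest of the 10 members, and lay on the side of Il17a under every centring. On the Th1 array its value became 0.54 after centring on the most repeated value. Jun turned to −0.07 there when centred on control genes, and Jund to 0.74 when centred on the most repeated value. Each of the 3 Jun genes had 1 probe.

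The 3 Egr genes differed from each other. Egr1, the most widely induced of them, had log2 ratios of 0.72 (1.65-fold, percentile 93.3) on the Th1 array and 0.98 (1.98-fold, percentile 97.0) on the Th17 array, beside Fosb on both. It remained positive under every centring. Egr3 lay near 0, at −0.10 (probe SD 0.11, 2 probes) and 0.07 (probe SD 0.36). Its probes lay on both sides of 0 on the Th17 array, at −0.19 and 0.32.

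Egr2 was the member that differed most between the arrays. It lay at 0.64 (1.56-fold, percentile 91.9) on the Th1 array and at −0.62 (1.54-fold, percentile 12.0) on the Th17 array. The 2 values stayed on opposite sides under every centring. Neither passed 2-fold in itself as deposited, and both rest on the same single probe.

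On the Th1 array 0 of the 10 members were at least 2-fold apart, against 10.2% of all genes (3.27% positive and 6.92% negative). On the Th17 array 1 of 10 was (Fosb), against 8.42% of all genes (2.9% on that side and 5.52% on the negative side). Egr1 lay just below the threshold there and passed it when the array was centred on its median or on control genes. Centred on the most repeated value, 5 members passed on the positive side of the Th1 array, where 29.8% of all genes then did, and 3 on that of the Th17 array, where 8.17% did. At 1.5-fold, 3 members were positive and 0 negative on the Th1 array (9.49% and 16.5% of all genes), and 3 were positive and 2 negative on the Th17 array (7.88% and 13.0%). The median of the members was 0.13 and 0.10, where that of all genes was −0.08 and −0.03. With the Th1 array centred on control genes the median of the members there was −0.11. As deposited, 5 members were positive on both arrays, 2 were negative on both and 3 lay on opposite sides, against 29.2%, 40.2% and 30.6% of all genes. Both arrays set a population against Th0, so these values share a control if the Th0 RNA was the same, which the labels do not state.

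In the order of values, neighbours mostly differed by less than the spread between probes. On the Th1 array the order ran from Fosb, Egr1, Egr2 and Fos down to Jun, Fosl2, Fosl1, Egr3, Jund and Junb, and none of the 9 gaps exceeded the pooled SD of 0.51. On the Th17 array Fosb, Egr1 and Fos were separated by 0.60 from Fosl2, Fosl1, Jun, Egr3 and Jund, which were separated by 0.52 from Egr2 and Junb. Only these 2 gaps exceeded the pooled SD of 0.49. That SD is for 1 probe, and a gap between 2 genes spreads more widely, so no groups are drawn from these gaps.

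**Figure D2:**
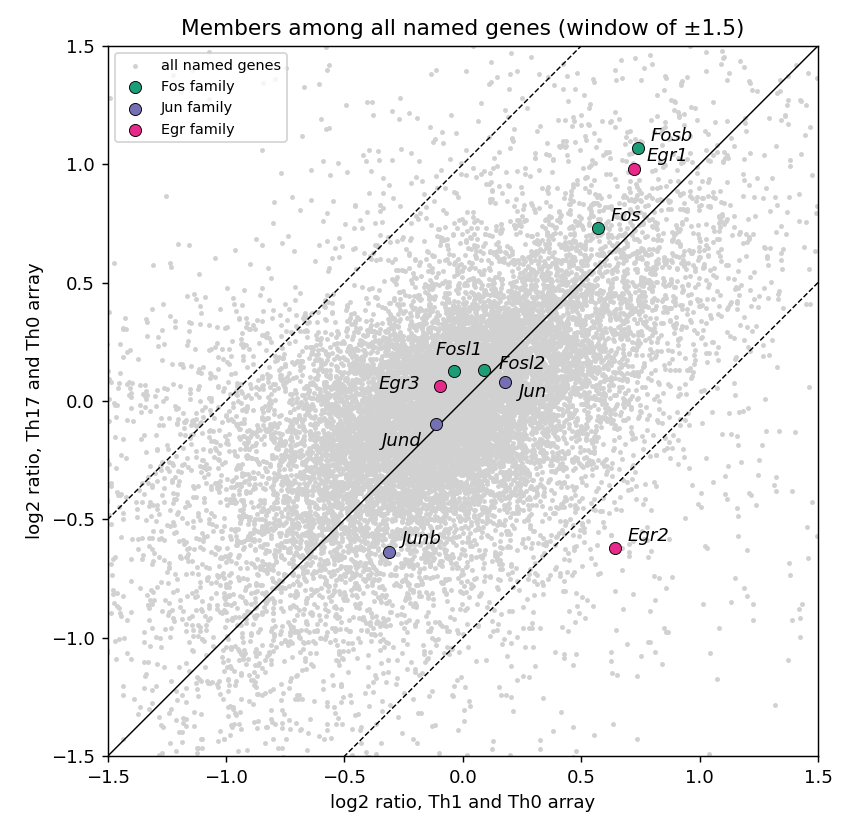
Each grey point is 1 named gene, with its log2 ratio on the Th1 array (horizontal) and the Th17 array (vertical), and coloured points are the 10 members; the solid line marks equal ratios and the dashed lines a 2-fold difference between arrays. Egr2 is the member beyond a dashed line, at 0.64 and −0.62, and Fosb and Egr1 sit side by side at upper right.

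To set Th17 against Th1, the log2 ratio of the Th1 array was subtracted from that of the Th17 array, which assumes that both columns run in 1 order and hold the same Th0 RNA. Of the 10 members 1, Egr2, was at least 2-fold apart, at −1.26 (2.40-fold, percentile 2.35), against 8.14% of all genes (3.61% negative and 4.53% positive). This size exceeds the pooled probe SD of 0.52. Centring both arrays on control genes took it to −0.99, just short of 2-fold, and the other centrings and equal quantiles gave −1.31 to −1.69. Under the titled reading Th17 cells held less Egr2 transcript than Th1 cells. Under the opposite reading, with which Il17a and Ifng went, Th17 cells held more.

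The other 9 members differed between the arrays by at most 0.33. Egr1 lay at 0.26 and Egr3 at 0.16, both apart from Egr2. Among AP-1 genes Fosb lay at 0.33, Fos at 0.16, Fosl1 at 0.16, Fosl2 at 0.04, Jund at 0.01, Jun at −0.10 and Junb at −0.32. The 2 Fosb probes gave −0.29 and 0.95, so the sign of its difference depended on the probe. The gap of 0.94 between Junb and Egr2 was the only one above the pooled probe SD. Centring on the most repeated value turned the differences of Fos, Fosb, Fosl1, Fosl2, Jund, Egr1 and Egr3 negative. Centring on control genes turned that of Jun to 0.17 and left that of Junb at −0.05. No order between Th17 and Th1 is therefore given for these 9 members.

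Most markers of myeloid cells and all those of mast cells and basophils moved in the direction of Egr2 between the arrays. The median of the B cell markers lay on the other side. Of 14 measured myeloid markers 8 were at least 2-fold negative and 0 positive in the difference (3.61% and 4.53% of all genes). Their values ran from −2.88 to 0.22, with a median of −1.32. All 7 mast cell and basophil markers lay below 0, from −2.35 to −0.12, with a median of −1.92. On the Th1 array itself, where Egr2 lay at 0.64, the medians of the myeloid and the mast cell lists were 1.82 and 2.62. On the Th17 array they were 0.62 and 0.90, opposite to Egr2 at −0.62. Myeloid cells and mast cells also use Fos and Egr genes. These medians are positive on both arrays, as the values of Fos, Fosb and Egr1 are. The part of these cells in the values of Egr2, Fos, Fosb and Egr1 was not tested, and in such bulk RNA fewer cells of a type and less RNA per cell cannot be told apart. The T cell marker list held 9 measured genes with medians of −0.70 and −1.0 on the arrays, and −0.10 in the difference. The 6 measured B cell markers had medians of −0.11, 0.14 and 0.20. Ratios do not show whether a marker is absent.

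**Figure D3:**
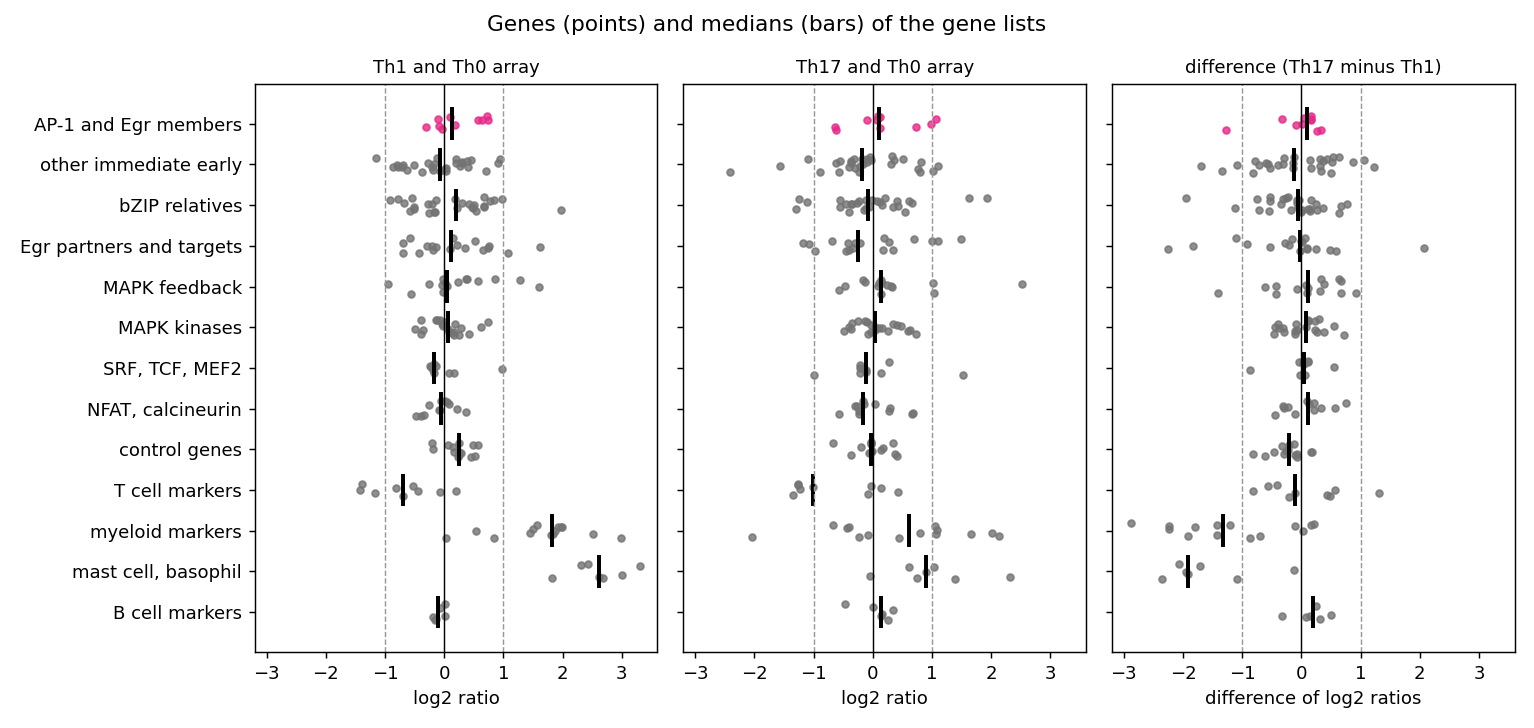
Each point is 1 gene of the list named on the left and bars are list medians, for the log2 ratios of both arrays and their difference; dashed lines mark 2-fold. The 10 members (pink) spread around medians of 0.13, 0.10 and 0.10, and in the difference Egr2 lies beyond the dashed line on the side of the myeloid and mast cell lists.

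Of 29 other immediate early genes, 0 were at least 2-fold positive and 1 negative on the Th1 array (3.27% and 6.92% of all genes). On the Th17 array 2 were positive and 3 negative (2.9% and 5.52% of all genes). Ier2, induced together with Fos in many cells and named after its value was seen, lay at 0.95 and 0.81, on the side of Fos and Egr1. Egr4, the remaining Egr gene, also named after its value was seen, lay at −0.51 and −0.17. Irf4, which works with AP-1 at shared sites and is needed by Th17 cells, lay at −0.71 and −2.41, and Nfkbia, the NF-kappaB inhibitor, at −0.77 and −1.56. Gadd45a, a stress gene, differed by −1.33 and Btg2, an antiproliferative gene, by 1.22 between the arrays. Thus the immediate early genes did not all lie on 1 side: medians were −0.07, −0.19 and −0.12 for the arrays and the difference.

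Other bZIP factors, relatives that can pair with Fos or Jun proteins or share their sites, numbered 28 measured of 29. Of these, 1 was 2-fold positive and 0 negative on the Th1 array (3.27% and 6.92% of all genes). On the Th17 array 2 were positive and 3 negative (2.9% and 5.52% of all genes). Jdp2, a Jun partner that represses AP-1 targets, lay at 1.97 (3.92-fold) and 1.93 (3.81-fold), farther out than any of the 10 members on either array. Nfil3 lay at 0.98 and 1.62, and Bach2, a repressor at AP-1-like sites, at −0.57 and −1.29. Cebpb, a factor abundant in myeloid cells, lay at 0.84 and −1.11, and so on opposite sides as Egr2 did. Batf, the Junb partner of Th17 cells, named for that role, lay at −0.27 on both arrays.

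Genes tied to Egr2 and Egr3 did not lie on 1 side. Of 18 measured, 2 were 2-fold positive and 0 negative on the Th1 array (3.27% and 6.92% of all genes). On the Th17 array 2 lay on each side (2.9% positive and 5.52% negative of all genes). Nab1 and Nab2, the corepressors of Egr proteins, named for that role, lay at 0.21 and −0.21 on the first and 0.27 and −0.42 on the second. In the difference, where Egr2 lay at −1.26, Lag3, an inhibitory receptor, lay at −1.83 and Tnfsf11, the RANK ligand gene, at −2.25, while Fasl, the death ligand gene, lay at 2.07. Rnf128, the tolerance ligase GRAIL, lay at 1.61 (probe SD 1.10, 2 probes) on the Th1 array.

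Phosphatase and feedback genes of the MAP kinase pathway, some of which are induced by the signal that induces Fos and Egr1, were measured for 15 of 16. There were 2 at least 2-fold positive and 0 negative on the Th1 array (3.27% and 6.92% of all genes). On the Th17 array 3 were positive and 0 negative (2.9% and 5.52% of all genes). Spry2, an inhibitor of growth factor signalling, lay at 1.60 and 2.52, Dusp6, an ERK phosphatase, at 0.36 and 1.04 (probe SD 0.92, 2 probes), and Dusp2, a nuclear MAP kinase phosphatase, at 0.38 and 1.02. These 3 were the genes at least 2-fold positive on the Th17 array, and lay on the side of Fos, Fosb and Egr1. However, 6 of the 15 genes lay below 0 on the Th1 array and 4 on the Th17 array. Among these Spry1, named after its value was seen, lay at −0.96 and −0.57 (probe SD 1.01 and 1.02, 2 probes). Dusp4, a related phosphatase, lay at 1.28 and −0.13 (probe SD 0.83, 3 probes, on the Th17 array).

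By distance on the plane of the 2 arrays, the genes nearest to Fosb, the member farthest from 0, were Ormdl1 (distance 0.028), Nt5dc3 (0.029), Etfb (0.033), Pdxdc1 (0.034) and Mindy1 (0.042). With 2 arrays this likeness rests on 2 values per gene, and the Fosb mean on 2 probes that disagree.

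The place of 0 decided the sides of the members near it. Every value of an array moves together when it is centred anew, by 0.11 and 0.05 for the array medians, by 0.85 and 0.43 for the most repeated values and by −0.25 and 0.02 for the control genes, so the order of members within an array is kept. Above 0 were 6 members on the Th1 array as deposited, 9 after centring on the median, 10 on the most repeated value and 4 on control genes. All named genes moved likewise, with 42.6%, 53.4%, 90.4% and 23.3% above 0. The 4 members above 0 with control genes were Fosb, Egr1, Egr2 and Fos. On the Th17 array 7 were above 0 in each case except centring on the most repeated value, which gave 8; of all genes, 46.3% lay above 0 as deposited, 51.3% and 49.1% with the median and control genes, and 81.1% with the most repeated value.

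**Figure D4:**
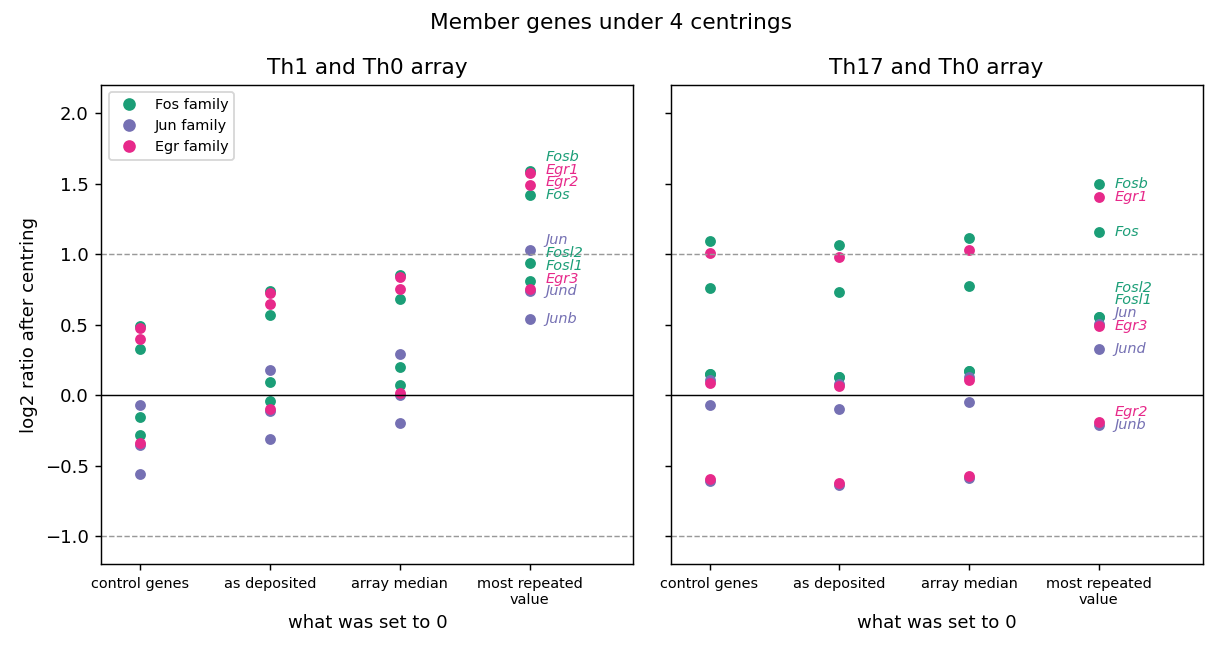
Points are log2 ratios of the 10 member genes, coloured by family, after setting control genes, nothing (as deposited), the array median or the most repeated value to 0; gene names stand beside the last column in its order and dashed lines mark 2-fold. On the Th1 array the number of members above 0 runs from 4 with control genes to 10 with the most repeated value, while on the Th17 array Junb and Egr2 stay below 0 throughout.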

How the data were processed

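Per the labels' protocols, 500 ng of column-purified total RNA per population was amplified with amino allyl nucleotides for dye coupling. The deposited table holds 1 log2 ratio per probe and array; the unit was taken from the values, and the scanner, background correction, normalisation, centring and direction are not given in the sources used here. Repeated values lie apart by log2 of small whole-number ratios. With 2 arrays, precision is limited by their number.

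Probes were named from the platform annotation, which can be old. Of 36547 probes 26926 carried 1 gene, 203 several and 9418 were unnamed here; 26774 gene numbers matched the RefSeq list (GRCm38.p6) and 0 symbols changed. Probes were averaged per gene. Genes were counted at 2-fold, with 1.5-fold, other ways to join probes, 3 centrings (array median, most repeated value, 14 control genes), equal quantiles and omission of probes with a weaker channel of at most 5 units (tolerance 0.0001 on the log2 scale) as alternatives. No member probe matched such a low channel.

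Members and lists were chosen with earlier results of these data known. Named were all members, up to 4 genes per list with the largest values, 7 orientation genes and the 5 nearest to the farthest member, besides genes stated to be chosen otherwise. Calculations were tested on simulated data (Python 3.11.15, pandas 2.3.3).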

Additional observations from a re-analysis of the deposited data

Results flagged for a closer look

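Of the members, Egr2 as deposited lay on opposite sides of the arrays by more than the pooled probe SD on each, at 0.64 and −0.62, a difference of −1.26. With 1 array per comparison this difference was not tested, and it rests on 1 probe. Centred on control genes Egr2 lay at 0.40 on the Th1 array, and centred on the most repeated value at −0.19 on the Th17 array. Both are within the pooled probe SD. As deposited, 7 of the other named genes also lay on opposite sides by more than that SD on each array, also untested. Most of them were named for their large values, so their number says nothing about the members. Of all genes 30.6% lay on opposite sides by any amount, and the share beyond that SD was not counted. Of the 7 genes, those negative in the difference were Cebpb at −1.95, Tnfsf11 at −2.25, Lag3 at −1.83 and the monocyte receptor gene Cd14 at −2.88. Positive were Fasl at 2.07, the Th1 regulator gene Tbx21 at 2.12 and the Th2 regulator gene Gata3 at 2.77.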

How the results depend on the processing

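The count of members at least 2-fold apart on the Th1 array, 0 as deposited, was 5 with the array centred on the most repeated value (31.5% of all genes) and 3 at 1.5-fold (26.0%). On the Th17 array the count of 1 became 0 with the median or nearer probe (7.55%), 2 with centring on the array median (8.22%) or on control genes (8.25%), 3 on the most repeated value (10.9%) and 5 at 1.5-fold (20.9%). In the difference the count of 1 became 0 with control genes (10.1%), where Egr2 stood at −0.99. The median of the members on the Th1 array was 0.98 when centred on the most repeated value. In the difference the median of 0.10 turned to −0.04 with the median or nearer probe and to −0.32 on the most repeated value. Including these sign changes, 36 recomputed counts and medians of 45 moved by less than the pooled probe SD or stayed within 1.5 times. Part of this tally was fixed in advance. No member probe was low in signal, and the 7 genes with 1 probe cannot move when probes are joined otherwise. That SD is for 1 probe and is a wide measure for a median of 10 genes. The members past 2-fold as deposited, Fosb on the Th17 array and Egr2 in the difference, did not change sign. For all genes, the negative share of those 2-fold apart was 67.9% on the Th1 array and 56.5%, 5.39% and 86.2% under centring on the median, the most repeated value and control genes; on the Th17 array 65.5% became 25.4% on the most repeated value, and in the difference 44.4% became 81.8% there and 22.9% with control genes. Signal over background is not given, so no member's precision is known. No paired analysis was possible because each comparison has 1 array.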

Other observations

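Factors that act upstream of the members are given here beside the shares of all genes at least 2-fold apart, 10.2% on the Th1 array and 8.42% on the Th17 array. Of 21 measured MAP kinase pathway kinases and regulators (29 listed), 0 were 2-fold apart on either array, with Map2k1 at 0.74 and 0.63 and Map3k1 at 0.62 and 0.73. Of 12 NFAT and calcineurin genes 0 were 2-fold apart on either array, with values from −0.48 to 0.37 and from −0.56 to 0.68. Of 9 serum response factor partners and MEF2 genes, 0 were 2-fold apart on the Th1 array and 1 on each side on the Th17 array, Mef2a at 1.52 (probe SD 0.75, 2 probes) and Elk3 at −1.0. Srf, the gene of serum response factor and named for that role, lay at −0.17 and −0.12. Cytokine genes with known AP-1 and NFAT sites, listed with the surface receptor genes Cd69 and Il2ra, ranged more widely. Over these 16 genes values ran from −2.97 to 0.42 on the Th1 array and from −5.79 to 1.5 on the Th17 array. At least 2-fold apart were 4 of them on the Th1 array and 7 on the Th17 array. Il2, which encodes a growth factor of T cells, lay at −0.59 and −2.50, and Csf2, which encodes GM-CSF, at −2.97 and −0.06.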
